A study of Arabidopsis thaliana with 6 samples.

Results

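The 10 genes described here act in iron acquisition by roots: 3 genes of the uptake machinery (*IRT1*, AT4G19690; *FRO2*, AT1G01580; *AHA2*, AT4G30190), 4 transcription factors that induce the iron deficiency response (*FIT*, AT2G28160; *bHLH38*, AT3G56970; *bHLH39*, AT3G56980; *MYB72*, AT1G56160), the coumarin enzyme gene *F6'H1* (AT3G13610), and the genes *BTS* (AT3G18290) and *PYE* (AT3G47640), which act in a further regulatory branch. They were chosen by gene identity, as named genes of the pathway, and all 10 were among the 37336 genes listed in the count tables. The tables hold RNA-seq of GFP-positive cells sorted from roots of 5-day-old Arabidopsis seedlings, with 3 libraries of the *bravo-2* mutant and 3 libraries of the wild type (WT). *bravo-2* is a knockout allele of *BRAVO*, an R2R3-MYB transcription factor of the quiescent centre (QC), the slowly dividing cells at the core of the root stem cell niche. Both genotypes carried the *pWOX5:GFP* reporter used for the sort and grew on half-strength Murashige and Skoog medium with no sucrose, and the labels give no change in iron supply. The mutant is represented by 1 allele, and the number of roots behind a library is not given in the sources used here.

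Arabidopsis takes up iron by reduction. Plasma membrane proton pumps acidify the soil, secreted coumarins help to mobilise ferric iron, a membrane reductase turns it into ferrous iron, and a metal transporter carries that into the cell. These steps are best known from the outer cell layers of the root under iron shortage, where FIT works together with bHLH factors of subgroup Ib, while the ubiquitin ligase BTS and the factor PYE tune the response in inner tissues.

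The libraries held between 10990221 and 14425263 counts, and a level is given as CPM, the count scaled to the library total, so that 3 counts correspond to 0.208 to 0.273 CPM. Intervals and such floors cover counting error only. *BRAVO* itself was at 17.4, 10.7 and 9.58 CPM in *bravo-2*, against 11.3, 40.6 and 61.3 CPM in WT. WT replicate 1 thus lay within the mutant range, and the *BRAVO* level alone does not tell that library from the mutant. The QC genes *WOX5* and *AGL42* were also at their lowest of the 6 libraries in WT replicate 1. Whether a smaller share of QC RNA lowered *BRAVO* there was not tested. *bravo-2* replicate 1 stood apart: the summed level of 5 root hair genes (*EXPA7*, *COBL9*, *PRP3*, *RHD6* and *RSL4*) was 10.12, 1004 and 2168 CPM in *bravo-2*, against 2887, 1663 and 2346 CPM in WT, and each of the 5 genes had its lowest value in that library. *WOX5*, the gene that defines the QC, ran the other way, at 562, 125 and 78.6 CPM in *bravo-2*, against 68.1, 282 and 377 CPM in WT. *AGL42* was at 20.8, 7.31 and 2.99 CPM in *bravo-2*, against 1.94, 7.46 and 9.90 CPM in WT. Root hair genes were thus read at 1004 CPM or more in 5 of the 6 sorted libraries. Fold changes that *bravo-2* replicate 1 moved are also given without it. That leaves out the library with the highest *WOX5* and *AGL42*, so those values are not a cleaner comparison of QC cells. Fewer cells of a type and less RNA per cell cannot be told apart in these sums.

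None of the 10 genes passed the test between the genotypes. Of the 10, 6 had a mean of at least 4 CPM in 1 genotype or more and entered the edgeR quasi-likelihood test, and 0 of these 6 passed an adjusted p of 0.05. The same test called 0 of 15738 genes (0%) at that threshold, with a lowest adjusted p of 0.326. At an unadjusted p under 0.05 it called 124 genes (0.788%), again with 0 of the 6. The median log2 fold change (*bravo-2* over WT) of the 6 genes was -0.06, and 0.27 without *bravo-2* replicate 1, beside 0.04 and -0.01 over all genes tested. In CPM, 653 genes (4.15%) did not overlap between the genotypes, 388 of them (2.47%) with WT above, and the 6 iron genes overlapped without exception.

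**Figure D1:**
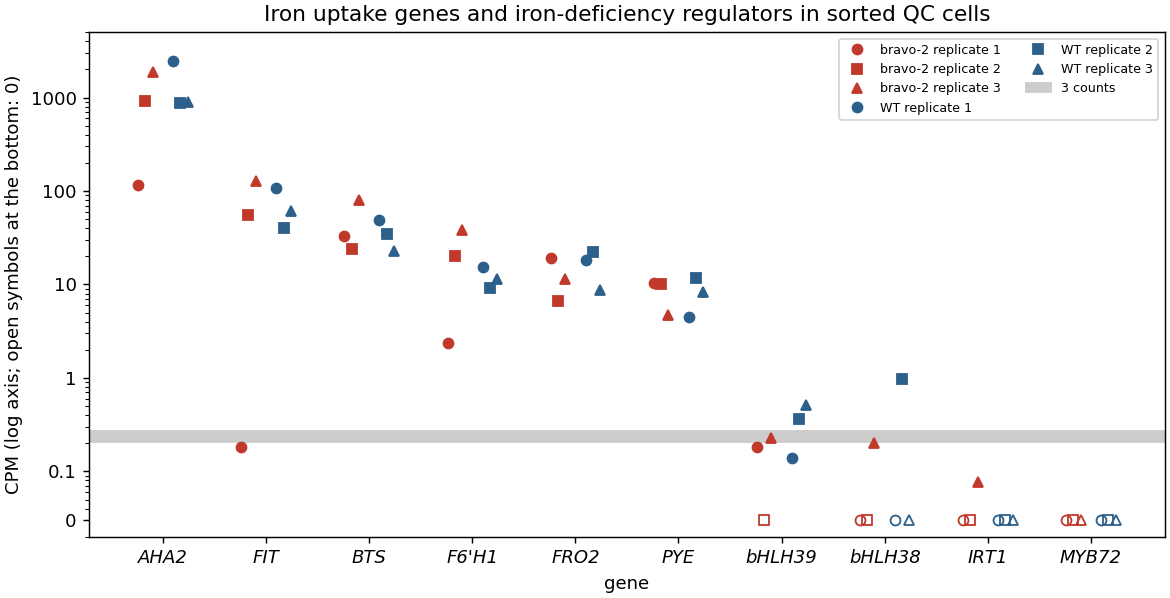
Level of each of the 10 iron genes in every library, in CPM on a log axis, with *bravo-2* in red to the left of WT in blue and 0 drawn as an open symbol. *AHA2* reaches 2457 CPM, 4 genes stay at or near the grey band of 3 counts, and the lowest *AHA2*, *FIT* and *F6'H1* values are those of *bravo-2* replicate 1.

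Per transcript length, in the deposited TPM values, the levels ran over a wide range. *AHA2* was at 399 ± 361 TPM in *bravo-2* and 587 ± 392.4 TPM in WT (SD, n = 3 each), and *FIT* was at 69.2 ± 72.8 TPM in *bravo-2* and 79.2 ± 40.9 TPM in WT. By range over the 6 libraries *FIT*, at 0.28 to 145 TPM, overlapped both *AHA2* and the next 4 genes, which also overlapped each other: 2.56 to 40.4 TPM for *F6'H1*, 7.20 to 26.3 TPM for *BTS*, 5.75 to 16.0 TPM for *PYE* and 3.81 to 12.9 TPM for *FRO2*. *bHLH39*, *bHLH38*, *IRT1* and *MYB72* had mean levels under 0.5 TPM in both genotypes.

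Within the uptake machinery, the transporter and the pump lay at opposite ends. *IRT1*, the main ferrous iron transporter of the root epidermis (chromosome 4, 10707344 to 10709015, plus strand, in the TAIR10.1 annotation), had 1 count in total: 0, 0 and 0.08 CPM in *bravo-2*, against 0 CPM in each WT library. The exact 95% Poisson interval of a count of 0 reaches 0.336 CPM in WT replicate 2, the shallowest of these libraries. That of the 1 count in *bravo-2* replicate 3 reaches 0.427 CPM, so *IRT1* was not detectable at this depth. Its neighbour *IRT2*, a transporter of the same family whose gene ends 2505 bases away, was counted in 5 of 6 libraries. It stood at 0, 11.3 and 40.6 CPM in *bravo-2*, against 40.8, 36.4 and 64.7 CPM in WT, and in CPM the ranges overlapped only in that *bravo-2* replicate 3 exceeded WT replicate 2. After TMM scaling *bravo-2* replicate 3 was at 49.9, against 48.1, 33.7 and 63.8 in WT, and so exceeded WT replicate 1 as well. The coding sequences of the pair are 75.3% identical. For *IRT2* the log2 fold change was -1.26 (SE 1.48, adjusted p = 1.00 by edgeR), with -0.69 without *bravo-2* replicate 1 and -3.18 without *bravo-2* replicate 3.

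*FRO2*, the ferric chelate reductase of the root surface (chromosome 1, 208995 to 213082, plus strand, 8 exons), was counted in every library. It was at 19.2, 6.69 and 11.3 CPM in *bravo-2*, against 18.3, 22.3 and 8.79 CPM in WT. The genotypes overlapped, and *bravo-2* replicate 1 was not low for this gene. Between genotypes the log2 fold change was -0.52 (SE 0.55, adjusted p = 1.00 by edgeR), and it stayed between -0.82 and -0.22 when each library was left out in turn. *FRO1*, which lies 1067 bases from *FRO2*, was at 0 in all 6 libraries. *FRO3*, a reductase of the mitochondrial membrane, was at 3.97, 22.5 and 68.6 CPM in *bravo-2*, against 21.8, 7.01 and 17.3 CPM in WT, with a log2 fold change of 1.14 (SE 1.04, adjusted p = 1.00 by edgeR). The value for *FRO3* was 1.68 without *bravo-2* replicate 1 and -0.44 without *bravo-2* replicate 3.

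*AHA2*, a plasma membrane proton pump that also serves nutrient uptake in general (chromosome 4, 14770395 to 14776247, minus strand, 14 to 15 exons by transcript), was the most abundant of the 10 genes in every library. It was at 117, 917 and 1868 CPM in *bravo-2*, against 2457, 865 and 906 CPM in WT. The 3 *bravo-2* libraries lay far apart, and WT replicate 1 lay above the other two WT libraries. With all libraries the log2 fold change was -0.49 (SE 1.10, adjusted p = 1.00 by edgeR). It was 0.05 without *bravo-2* replicate 1, -1.68 without *bravo-2* replicate 3 and 0.39 without WT replicate 1, so that its direction rested on single libraries. On log2(TMM-scaled CPM + 1) limma gave *AHA2* a log2 value of -1.16 with an unadjusted p of 0.364. After the first component of the residual variation was removed, the value was still -1.16, with an adjusted p of 0.034 by limma. That setting called 676 genes. The removal leaves the genotype means unchanged and takes out spread between replicates, so its p-values do not measure the full spread. *AHA1*, the closest relative of *AHA2* with a coding sequence 89.2% identical, was at 233, 308 and 337 CPM in *bravo-2*, against 450, 288 and 233 CPM in WT. Both genes had fractional counts in several libraries, which arise where reads are shared between similar genes, so their levels carry that uncertainty. The CPM ratio of *AHA2* to *AHA1* was 0.50, 2.98 and 5.54 in *bravo-2*, against 5.46, 3.01 and 3.89 in WT (exact permutation test, two-sided, p = 0.60). *AHA7*, a pump known for its part in root hair growth, was at 8.13, 176 and 411 CPM in *bravo-2*, against 435, 252 and 397 CPM in WT, with a log2 fold change of -0.74 (SE 1.18, adjusted p = 1.00 by edgeR). The value for *AHA7* was -0.18 without *bravo-2* replicate 1 and -2.13 without *bravo-2* replicate 3.

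*FIT*, the bHLH factor at the head of the root iron deficiency response (named *FRU* in the annotation; chromosome 2, 12004658 to 12006276, plus strand, 4 to 5 exons), was present in 5 libraries and nearly missing from 1. It was at 0.18, 54.8 and 128 CPM in *bravo-2*, against 107, 40.6 and 60.5 CPM in WT. The value of 0.18 CPM in *bravo-2* replicate 1 rests on 2 counts, with an exact 95% Poisson interval of 0.0219 to 0.653 CPM, while the other 5 libraries held 446 to 1675 counts. The other 2 *bravo-2* libraries lay within or above the WT range. In the fit of *FIT* the log2 fold change was -0.09 (SE 1.48, adjusted p = 1.00 by edgeR), and 0.49 without *bravo-2* replicate 1, with -1.53 and 0.56 as the limits over all libraries left out. On log2(TMM-scaled CPM + 1) limma gave *FIT* a value of -1.65 (adjusted p = 1.00). The root hair markers were low in the same library. As a percentage of their summed level, a measure chosen after the values were seen, *FIT* was at 1.79, 5.45 and 5.92 in *bravo-2*, against 3.71, 2.44 and 2.58 in WT, and *AHA2* was at 1154, 91.3 and 86.2 in *bravo-2*, against 85.1, 52.0 and 38.6 in WT. The part of the root hair cells in the *FIT* and *AHA2* values was not tested.

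The partners of FIT had few counts. *bHLH38* and *bHLH39*, subgroup Ib factors that form dimers with FIT, lie next to each other on the minus strand of chromosome 3 with 1144 bases between them, and their coding sequences are 84.8% identical. *bHLH38* had 0, 0 and 2.62 estimated counts in *bravo-2*, against 0, 10.81 and 0 in WT, and both values above 0 were fractional. *bHLH39* had 2, 0 and 3 counts in *bravo-2*, against 2, 4 and 7 in WT, which is 18 counts over the whole experiment. The CPM values of *bHLH39* were 0.18, 0 and 0.23 in *bravo-2*, against 0.14, 0.36 and 0.52 in WT, and the genotypes overlapped. *bHLH100* and *bHLH101*, the other two factors of this subgroup, were also low, with at most 0.54 CPM for *bHLH100* and 3.52 CPM for *bHLH101*. *MYB72*, a MYB factor that FIT induces and that is known for coumarin release, was listed at 0 in all 6 libraries. *MYB10*, which acts redundantly with *MYB72*, was at 2.29, 0.53 and 0.29 CPM in *bravo-2*, against 0.53, 1.65 and 0.77 CPM in WT. When every gene with a count was tested, *IRT1*, *bHLH38* and *bHLH39* each had an adjusted p of 1.00 by edgeR. In the TAIR10.1 annotation *bHLH38* overlaps a gene on the opposite strand, and *MYB72* and *F6'H1* also overlap other genes. Whether the counting used strand is not given in the sources used here, so reads of overlapping genes may not be told apart.

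*BTS*, a ubiquitin ligase with iron-binding hemerythrin domains that restrains the iron deficiency response (chromosome 3, 6273966 to 6280562, plus strand, 14 exons), and *PYE*, a bHLH repressor induced in the pericycle by iron shortage (chromosome 3, 17567126 to 17569394, plus strand, 5 to 6 exons), were counted in all libraries. *BTS* was at 32.9, 23.9 and 80.1 CPM in *bravo-2*, against 49.1, 34.6 and 22.8 CPM in WT. Only *bravo-2* replicate 3 lay outside the WT range. Its log2 fold change was 0.39 (SE 0.68, adjusted p = 1.00 by edgeR), with 0.68 without *bravo-2* replicate 1 and -0.63 without *bravo-2* replicate 3. *PYE* was at 10.4, 10.2 and 4.75 CPM in *bravo-2*, against 4.44, 11.8 and 8.28 CPM in WT. All 3 *bravo-2* values lay within the WT range, with a log2 fold change of -0.03 (SE 0.53, adjusted p = 1.00 by edgeR) and limits of -0.24 and 0.25 over all libraries left out.

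The bHLH factors of subgroup IVc, which act upstream of the Ib genes and are held down by BTS, were all expressed. *ILR3* was at 125, 69.1 and 75.5 CPM in *bravo-2*, against 79.7, 108 and 101 CPM in WT. *bHLH104* was at 58.1, 40.8 and 42.7 CPM in *bravo-2*, against 37.7, 58.8 and 54.8 CPM in WT, and *bHLH34* was at 12.4, 6.25 and 5.44 CPM in *bravo-2*, against 4.92, 10.3 and 10.7 CPM in WT. For these 3 genes the highest *bravo-2* value in CPM was that of replicate 1, but after TMM scaling *bHLH104* was highest in replicate 3, at 52.5 against 45.9 in replicate 1. *bHLH115*, the remaining factor of the subgroup, had its lowest value there, at 15.5, 34.9 and 78.4 CPM in *bravo-2*, against 53.9, 38.5 and 32.3 CPM in WT. All 4 overlapped between genotypes.

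The 250 bases upstream of the annotated start differ in the bHLH binding motif, the E-box CANNTG, which reads the same on both strands. It was found upstream of 5 of the 10 genes, beside 55.32% of 27443 upstream windows of the same length in the genome. The G-box CACGTG, which is one form of the E-box, was found in 6.49% of the windows. Of the 10 genes, *BTS* and *bHLH38* held it, and *BTS* held 3 copies, as did 27 windows (0.098%) that had 3 or more. Those 2 windows are shown to set a gene read in all libraries beside one with few counts, with E-boxes in capitals. The *BTS* window is chr3:6273716-6273965 on the plus strand and that of *bHLH38* is chr3:21085246-21085495 on the minus strand (RefSeq, TAIR10.1).
BTS: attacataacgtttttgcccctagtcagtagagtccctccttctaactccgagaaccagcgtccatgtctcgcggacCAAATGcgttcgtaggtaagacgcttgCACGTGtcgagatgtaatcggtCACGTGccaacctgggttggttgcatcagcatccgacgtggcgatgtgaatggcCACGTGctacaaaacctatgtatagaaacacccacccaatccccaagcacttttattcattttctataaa
bHLH38: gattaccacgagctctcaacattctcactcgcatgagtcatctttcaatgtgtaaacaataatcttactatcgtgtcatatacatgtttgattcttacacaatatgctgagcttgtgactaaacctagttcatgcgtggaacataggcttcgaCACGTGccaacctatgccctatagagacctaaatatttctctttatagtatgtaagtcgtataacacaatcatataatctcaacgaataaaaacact
The G-boxes begin 146, 124 and 70 bases before the start of *BTS* and 97 bases before that of *bHLH38*. A match is a description of the letters, and the motif does not rank these genes by level: *AHA2*, *FRO2* and *PYE* had no E-box in the window and were read in every library. The remaining counts were 3 E-boxes for *F6'H1* and 1 each for *FIT* and *bHLH39*.

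*F6'H1* encodes feruloyl-CoA 6'-hydroxylase, the enzyme that makes the coumarin scopoletin (chromosome 3, 4449259 to 4450811, plus strand, 2 exons). It was at 2.35, 20.2 and 38.2 CPM in *bravo-2*, against 15.5, 9.19 and 11.5 CPM in WT. Replicate 1 of *bravo-2* lay below the WT range and the other two *bravo-2* libraries above it. The log2 fold change was 0.84 (SE 0.95, adjusted p = 1.00 by edgeR). It was 1.38 without *bravo-2* replicate 1, with an unadjusted p of 0.034 and an adjusted p of 1.00 by edgeR, and -0.28 without *bravo-2* replicate 3.

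Its paralog *F6'H2* (chromosome 1) encodes the same activity. It was at 0.90, 21.1 and 36.4 CPM in *bravo-2*, against 79.0, 68.5 and 121 CPM in WT. All 3 *bravo-2* libraries lay below all 3 WT libraries. The log2 fold change was -2.07 (SE 1.11, unadjusted p = 0.102, adjusted p = 1.00 by edgeR), -1.51 without *bravo-2* replicate 1 and -3.15 without *bravo-2* replicate 3. After removal of the first residual component, limma on log2(TMM-scaled CPM + 1) gave a log2 value of -2.92 with an adjusted p of 0.029. That setting called 676 genes and leaves part of the spread between replicates out of the test. The exact permutation test gave p = 0.10, the smallest that 3 libraries against 3 allow.

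The balance of the pair did not overlap between genotypes. The CPM ratio of *F6'H1* to *F6'H2* was 2.60, 0.958 and 1.05 in *bravo-2*, against 0.197, 0.134 and 0.095 in WT. On the log2 scale the ratio averaged 0.46 ± 0.80 in *bravo-2* and -2.88 ± 0.53 in WT (SD, n = 3 each), a difference of 3.34, with p = 0.10 as the smallest value of the exact two-sided permutation test. The difference was 2.88 without *bravo-2* replicate 1, where the ratio rests on 26 counts of *F6'H1* and 10 of *F6'H2*, and 2.88 to 3.61 when each library was left out. The ratio was chosen after the values of both genes were seen. *F6'H2* alone was already lower in each *bravo-2* library than in each WT library, as were 388 of the genes tested (2.47%). The share of gene pairs whose ratio does not overlap was not computed. The ratio does not depend on library scaling, neither gene had fractional counts, and the coding sequences are 76.6% identical. *F6'H1* overlaps another annotated gene on the opposite strand and *F6'H2* overlaps none. Whether reads of that neighbour entered the ratio was not tested. As a percentage of the root hair marker sum, *F6'H1* was at 23.2, 2.02 and 1.76 in *bravo-2*, against 0.538, 0.552 and 0.488 in WT. On the same measure *F6'H2* was at 8.93, 2.10 and 1.68 in *bravo-2*, against 2.74, 4.12 and 5.14 in WT, so that *F6'H1* did not overlap between genotypes and *F6'H2* did. This was not particular to *F6'H1*. *AHA7* did not overlap either, at 80.4, 17.6 and 19.0 in *bravo-2*, against 15.1, 15.2 and 16.9 in WT. Neither did *AHA2*, also with *bravo-2* above, while *FIT* and *IRT2* overlapped. The share of all genes that do not overlap on this measure was not computed. Whether cell composition enters the ratio of *F6'H1* to *F6'H2* was not tested.

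**Figure D2:**
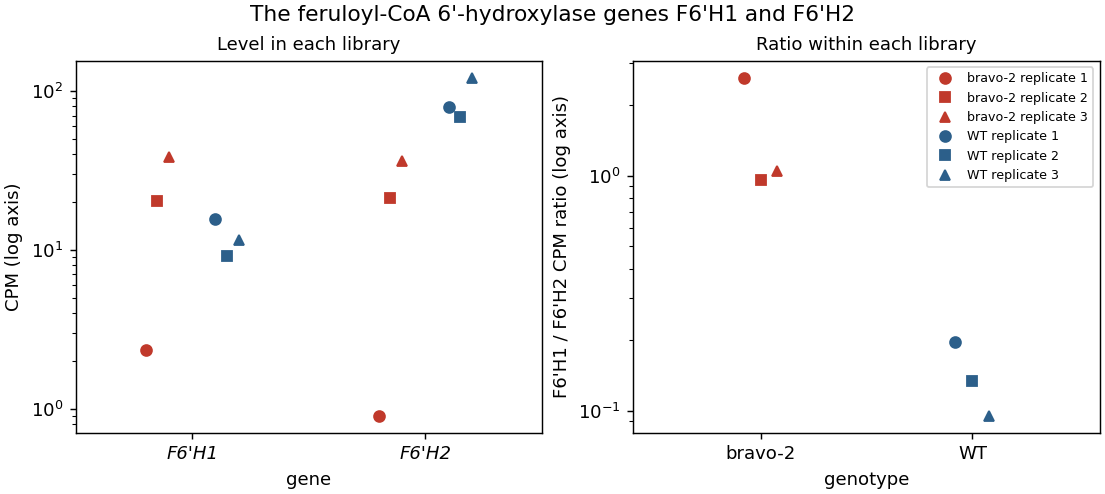
Left, CPM of *F6'H1* and *F6'H2* in each library on a log axis, *bravo-2* in red and WT in blue; right, the ratio of the 2 genes within each library, also on a log axis. The ratio lies at 0.958 or above in the 3 *bravo-2* libraries and at 0.197 or below in the 3 WT libraries.

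In the upstream windows of the pair, *F6'H1* holds 3 E-boxes, beginning 218, 196 and 90 bases before the start, and *F6'H2* holds 1, beginning 117 bases before it. Both are printed because the ratio of the pair did not overlap between genotypes, again with E-boxes in capitals (RefSeq, TAIR10.1). The *F6'H1* window is chr3:4449009-4449258 on the plus strand and that of *F6'H2* is chr1:20627514-20627763 on the minus strand.
F6'H1: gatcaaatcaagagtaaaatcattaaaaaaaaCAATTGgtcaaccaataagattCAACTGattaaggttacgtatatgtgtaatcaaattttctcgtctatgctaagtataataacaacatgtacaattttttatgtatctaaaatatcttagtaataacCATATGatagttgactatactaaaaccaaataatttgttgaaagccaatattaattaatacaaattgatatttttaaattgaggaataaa
F6'H2: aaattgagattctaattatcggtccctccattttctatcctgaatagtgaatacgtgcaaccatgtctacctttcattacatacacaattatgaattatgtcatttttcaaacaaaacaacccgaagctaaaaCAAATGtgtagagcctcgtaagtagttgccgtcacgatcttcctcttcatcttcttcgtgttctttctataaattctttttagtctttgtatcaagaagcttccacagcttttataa
These letters do not tell which factor acts there.

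A wider set of 56 iron genes was read in the same edgeR fit, and 0 of them passed an adjusted p of 0.05. After removal of the first residual component, a setting that called 676 genes, 3 of them passed it by limma on log2(TMM-scaled CPM + 1). These were *F6'H2*, *IRT2* with a log2 value of -2.51 (adjusted p = 0.038) and *AHA7* with -2.07 (adjusted p = 0.046). Of the 56, 27 passed the expression filter, 15 with a positive and 12 with a negative log2 fold change and a median of 0.08, beside 0.04 over all genes. Without *bravo-2* replicate 1 the median was -0.16, beside -0.01. At an unadjusted p under 0.05 there were 0 of 27, against 0.788% of all genes, and 2 of 27 did not overlap between genotypes, against 4.15%. One was *F6'H2* and the other was *ORG1*, a gene named for its response to the OBP3 factor, at 30.4, 30.0 and 34.7 CPM in *bravo-2*, against 25.3, 26.9 and 21.1 CPM in WT. *ORG1* had a log2 fold change of 0.34 (SE 0.40, adjusted p = 1.00 by edgeR), and its genotypes overlapped once the counts were scaled by TMM factors. Below the filter, *bHLH11*, a repressor of the iron response, and the transporter genes *IREG1* and *VIT1* were higher in each WT library than in each *bravo-2* library, which makes 3 of the 21 listed genes below the filter that had a count, beside 289 of 11249 such genes (2.57%) in the tables. *bHLH11* was at 0, 0 and 0.31 CPM in *bravo-2*, against 0.62, 1.00 and 0.44 CPM in WT. *IREG1* was at 0, 0 and 0.46 CPM in *bravo-2*, against 1.04, 0.64 and 1.33 CPM in WT. *VIT1* was at 0.63, 0.44 and 0.15 CPM in *bravo-2*, against 0.90, 4.19 and 1.15 CPM in WT. At most 6 counts of *bHLH11* or *IREG1* were read in a *bravo-2* library.

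By group, the other regulators had 7 of 14 genes tested, 4 with a positive and 3 with a negative value and a median log2 fold change of 0.08, which was -0.16 without *bravo-2* replicate 1. The relatives of the uptake genes had 6 of 11 tested, 2 positive and 4 negative, with a median of -0.22, which was 0.13 without *bravo-2* replicate 1. The coumarin genes had 4 of 6 tested, 1 positive and 3 negative, with a median of -0.11, which was -0.33 without that library. *PDR9*, the exporter of scopoletin and related phenolics, was at 108, 298 and 642 CPM in *bravo-2*, against 517, 200 and 202 CPM in WT. Transport and storage genes had 10 of 25 tested, 8 positive and 2 negative, with a median of 0.15, which was -0.06 without *bravo-2* replicate 1. Among them the ferritins, which store iron in plastids, were all read: *FER3* was at 123, 158 and 236 CPM in *bravo-2*, against 160, 120 and 136 CPM in WT, and *FER1* was at 76.8, 47.3 and 66.8 CPM in *bravo-2*, against 32.1, 72.9 and 63.9 CPM in WT. *FER2* and *FER4* stayed between 6.44 and 22.0 CPM over all 6 libraries, and the 4 ferritins overlapped between genotypes.

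Genes that the annotation does not name are given by their identifiers. AT1G74770, annotated as a zinc ion binding protein, was at 0, 3.61 and 10.09 CPM in *bravo-2*, against 4.77, 0 and 3.82 CPM in WT, and AT1G18910, annotated likewise, was at 79.99, 35.0 and 26.8 CPM in *bravo-2*, against 30.8, 50.5 and 33.9 CPM in WT. The counts of AT1G18910 were fractional in all 6 libraries. AT1G47400 and AT1G47395 were at 0 in all libraries and AT2G30766 reached at most 0.53 CPM.

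**Figure D3:**
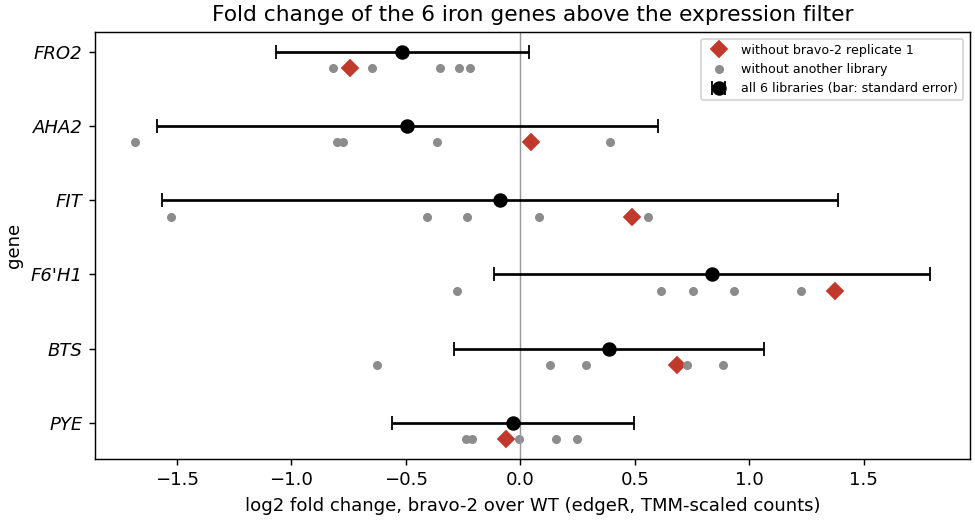
Log2 fold change of *bravo-2* over WT for the 6 iron genes above the expression filter, with all libraries (black, bar: standard error) and with each library left out in turn (grey; red diamond: without *bravo-2* replicate 1). For *AHA2*, *FIT*, *F6'H1*, *BTS* and *PYE* the points fall on both sides of 0, and *FRO2* stays between -0.82 and -0.22.

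Libraries of 1 genotype differed widely, and not in the same way for each gene. *AHA2*, *FIT*, *F6'H1*, *IRT2*, *AHA7* and *F6'H2* had their lowest value in *bravo-2* replicate 1, as did the root hair markers, while *FRO2*, *PYE* and most of the IVc factors did not. Likeness was measured as the root mean square difference of log2(TMM-scaled CPM + 1), centred on the gene mean, over the 6 libraries. The most alike genes were *GTL1* for *AHA2* (0.102), AT1G63220 for *FIT* (0.137), *WRKY25* for *F6'H1* (0.162), AT5G01760 for *BTS* (0.115), *APG1* for *PYE* (0.084) and *TBL30* for *FRO2* (0.182). The next 2 genes were AT4G30060 and *GAD* for *AHA2*, AT2G46140 and AT3G19390 for *FIT*, AT5G61560 and *VHA-E3* for *F6'H1*, AT4G19160 and *GDAP1* for *BTS*, AT5G53930 and AT3G27340 for *PYE*, and AT5G50565 and AT5G51470 for *FRO2*. These are descriptions over 6 libraries drawn from 15738 genes, and every gene is read in the same libraries, whose depth and marker levels differ.

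**Figure D4:**
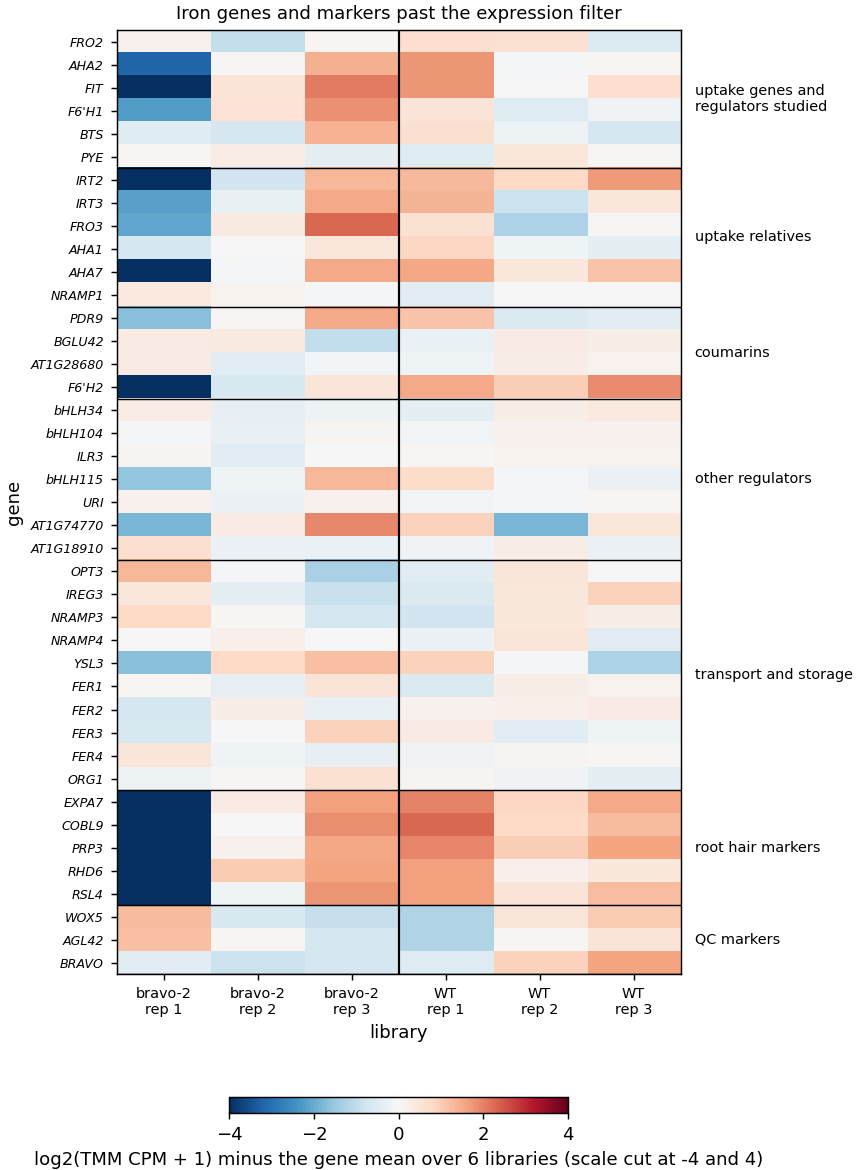
Iron genes and markers above the expression filter (rows) in the 6 libraries (columns, *bravo-2* left of WT), coloured by log2(TMM-scaled CPM + 1) minus the gene mean, with the colour scale ending at -4 and 4. *FIT*, *IRT2*, *AHA7*, *F6'H2* and the 5 root hair markers share the dark blue of *bravo-2* replicate 1, and the IVc genes *bHLH34*, *bHLH104* and *ILR3* are pale throughout.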

How the data were processed

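RNA of sorted GFP-positive QC cells was amplified with the SMART-Seq v4 kit. From reads that had gone through cutadapt and STAR (TAIR10 genome, Araport11 transcripts), the authors made expected counts and TPM per gene with RSEM, which they deposited for each library. The expected counts were rounded to whole numbers and tested with edgeR 4.0.16 in R 4.3.3 (quasi-likelihood test, TMM scaling, a filter at a genotype mean of 4 CPM in 1 genotype or more, Benjamini-Hochberg adjustment over all genes tested, threshold 0.05). Levels in CPM were taken on library totals, and levels were compared between genes in the deposited TPM. An exact permutation test (two-sided, smallest p 0.10) was applied to log2(CPM + 1) of single genes. Alternatives used upper quartile scaling, DESeq2 1.42.0, limma 3.58.1, other filters, blocks and left-out libraries. The study's NOISeq and ARSyN steps were not run, and removal of the first residual component was used as a stand-in. Positions and upstream windows came from the RefSeq TAIR10.1 annotation, whose table held 37051 of the 37336 genes. The scripts were tested on simulated data. Recovery of the changed genes was required there only at a dispersion of 0.05, while the common dispersion of these data was 0.405. That check does not measure the power of the tests here.

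The 10 genes were chosen by gene identity, but that choice and the lists were made with earlier results of these data known. All 10 genes are named, with their nearest paralogs, the IVc factors, the ferritins, annotated peptides of the pathway, any listed gene that did not overlap or had an unadjusted p under 0.05, and the 3 genes most alike in pattern to each gene tested. The labels do not say that replicates came from separate cultures, so p-values measure the spread between these libraries. Those after removal of the first residual component leave out the part of that spread that was removed.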

Additional observations from a re-analysis of the deposited data

How the results depend on the processing

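The count of genes past an adjusted p of 0.05 was 0 with edgeR (124 at an unadjusted p under 0.05), 13 with DESeq2, 1 when all genes with a count were tested, and 676 after the first residual component was removed. The last setting also called 1 of the 10 iron genes, *AHA2*, with an adjusted p of 0.034, and 3 of the 56 other iron genes. The cause of these differences was not tested. The fold change of *PYE* was 0.03 with upper quartile scaling, and when libraries were blocked by the leading digit of their title codes that of *F6'H1* was -0.39, of *FIT* -3.44 and of *AHA2* -1.72, with a median of -0.46 over the 6 genes tested. Those blocked values compare *bravo-2* replicate 1 with WT replicate 1 and *bravo-2* replicate 3 with WT replicate 2. The remaining libraries share their digit with no other and do not enter. On log2(TMM-scaled CPM + 1) with limma, *FIT* was at -1.65, *AHA2* at -1.16 and *F6'H1* at 0.10. With 1 library left out, log2 fold changes ran from -1.68 to 0.39 for *AHA2*, -1.53 to 0.56 for *FIT*, -0.28 to 1.38 for *F6'H1*, -0.63 to 0.88 for *BTS* and -0.24 to 0.25 for *PYE*. The median of the 6 genes was -0.64 without *bravo-2* replicate 3, 0.27 without *bravo-2* replicate 1 and 0.47 without WT replicate 1. Same-numbered libraries did not deviate together (correlations of -0.717, -0.092 and -0.425 for replicates 1, 2 and 3). As *bravo-2* replicate 1 stood apart, these correlations cannot decide whether same-numbered libraries were sorted or prepared together. With the replicate block, 0 genes passed (52 at an unadjusted p under 0.05) and the median of the 6 genes was -0.25. With at least 10 counts in every library required, 5 of the 10 genes were tested, without *FIT*. Few or no counts were read for *IRT1* (1 in total), *bHLH38* (13.43), *bHLH39* (18) and *MYB72* (0), so differences in them were not detectable at this depth.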
